A study of Mus musculus with 246 samples.

Results

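RNA of adult outbred male CD1 mice that had grown up under early life adversity (ELA_Vehicle, 14 mice) was compared with that of mice reared under standard conditions (Ctrl_Vehicle, 13 mice), with the brain regions of each mouse summed. These were 27 of the 41 mice of the series, each with 5 of its libraries. For each mouse number the counts of 5 regions were added up, so that the mouse and not the library was the unit. The regions were mPFC and ACC (the medial prefrontal and the anterior cingulate cortex), BLA (the basolateral part of the amygdala), DMT (the dorsomedial part of the thalamus) and vHipp (the ventral part of the hippocampus). The nucleus accumbens was left out. In the adversity groups the dam and her litter were kept with little bedding and nesting material for about a week soon after birth, and in the control groups with the usual amount. All dams of both groups received an injection of the carrier gel without drug. Both conditions came in a NoInteraction set (7 ELA_Vehicle and 7 Ctrl_Vehicle mice) and a SocialInteraction set (7 and 6 mice), whose mice met an unfamiliar mouse for 10 min before tissue collection. The question was which genes differed after adversity in the same way across the brain and in both sets. Litters were assigned whole to a condition and the labels do not name them, so litter of origin and condition cannot be told apart. The study's text also describes cages from weaning that mixed control, adversity and SAFit2 mice. Cages are not named by the labels either and were not a term of the fit. The p-values treat mice of one group as independent. The 14 ELA_SAFit2 mice, whose dams received SAFit2, an inhibitor of FKBP51, under the same adversity, are shown beside these groups as levels only.

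Glucocorticoids released under stress act through the glucocorticoid receptor, which is held ready for hormone by the HSP90 chaperone machinery. FKBP51, the product of Fkbp5, is a co-chaperone that lowers the receptor's affinity for hormone and is itself induced by the receptor, which closes a feedback loop. Limited bedding fragments maternal care, and adversity of this kind is known for lasting effects on stress hormone regulation and social behaviour. CD1 is an outbred stock, so mice differ from each other in genotype.

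The libraries held between 20804247 and 39360386 counts and the sums over the 5 regions between 132593614 and 162691468 counts per mouse. Each of these libraries resembled the other regions of its own mouse more than those of any other mouse, over 60 genes chosen in the other regions (lowest correlation with its own mouse 0.787). Of the 27 nucleus accumbens libraries of these mice, 8 matched another mouse. Levels are given as CPM, each count scaled to the library total after TMM normalization. Tcf7l2, a thalamic transcription factor, had a median of 441 CPM in DMT and at most 41.9 CPM in any library of the other 4 regions.

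Across both sets, 2 of 16942 protein-coding genes passed an adjusted p of 0.05, which is 0.0118% of the genes tested, and both rose in ELA_Vehicle. They were Hectd3, which encodes a HECT-type E3 ubiquitin ligase, and Zfp986, a zinc finger gene of a large cluster of such genes. At an unadjusted p of 0.05, 1065 genes (6.29%) differed, 520 of them higher (3.07%) and 545 lower (3.22%) in ELA_Vehicle. The test was edgeR's quasi-likelihood test with set as a covariate and Benjamini-Hochberg adjustment. In none of the 16942 genes were the ranges of the 14 ELA_Vehicle and the 13 Ctrl_Vehicle mice apart (0.0%).

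Hectd3 (ENSMUSG00000046861.10) lies on the plus strand of chromosome 4 at chr4:116995317-117005277 in GENCODE M21 on build GRCm38. Its level ran from 57.2 over a median of 59.6 to 61.4 CPM in the 13 Ctrl_Vehicle mice and from 57.4 over a median of 66.1 to 70.1 CPM in the 14 ELA_Vehicle mice. Of the 14 ELA_Vehicle mice, 12 lay above every control, and the remaining mice, one in each set, lay within the control range. The means were 65.6 ± 3.13 CPM (SD, n = 14) and 59.8 ± 1.15 CPM (SD, n = 13), a rise of 1.1-fold (log2 fold change 0.13, SE 0.021, edgeR adjusted p = 0.00862). The call held when any single mouse was left out (adjusted p between 1.99e-05 and 0.0273 over 27 fits). It was lost when the 14 ELA_SAFit2 mice entered the fit and shared the estimate of the spread (Hectd3 log2 fold change 0.135, edgeR adjusted p = 0.297). In those mice Hectd3 ran from 57.2 over a median of 61.7 to 74.8 CPM.

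The 250 bases before the RefSeq start of Hectd3 are shown because it was the better measured of the called genes, and because the glucocorticoid receptor binds DNA at pairs of a half-site of 6 letters, AGAACA or, on the other strand, TGTTCT. Capitals would mark this half-site. They are absent from the window chr4:116995084-116995333 (plus strand, GRCm38.p6).
Hectd3: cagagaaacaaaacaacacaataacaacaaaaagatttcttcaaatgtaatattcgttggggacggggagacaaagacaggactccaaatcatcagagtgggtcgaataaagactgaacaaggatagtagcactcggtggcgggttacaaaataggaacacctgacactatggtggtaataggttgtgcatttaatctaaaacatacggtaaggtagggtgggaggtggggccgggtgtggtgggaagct
The half-site stood in the same 250 bases in 16.1% of the 32851 RefSeq promoters. Of the 23 gene symbols named below, 12 had a promoter in the RefSeq table, and 0 of the 12 held the half-site there. The letters describe this window only.

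Zfp986 (ENSMUSG00000078500.4, chr4:145868794-145899975, GRCm38) was nearly silent. Its counts summed over 5 regions were 0 to 3 per Ctrl_Vehicle mouse, with 5 of 13 mice at 0 and 12 counts in the whole group, and 0 to 53 per ELA_Vehicle mouse, with 1 of 14 mice at 0 and 246 counts in the group. Of the 14 ELA_Vehicle mice, 12 lay above the highest control at 0.0221 CPM, and the highest reached 0.409 CPM. The fitted log2 fold change was 4.07 (SE 0.676, edgeR adjusted p = 0.00862), and at such counts it depends on how zeros are handled. The call was lost in limma on log2 CPM averaged over the regions (log2 fold change 1.38, limma adjusted p = 0.171), and the gene was too low to be tested once edgeR's own expression filter was used. Zfp986 is flanked by closely related zinc finger genes, among which the authors' counting could split reads, so the rise of this single gene is uncertain.

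Of 18 tested Zfp genes between 145000000 and 148000000 on chromosome 4, a window chosen after the values were seen, 9 were higher and 1 lower at an unadjusted p of 0.05, beside 3.07% and 3.22% of all genes. Zfp984, one of the genes the study names, stood at 0.144 to 2.61 CPM with a median of 0.221 in Ctrl_Vehicle and at 0.137 to 5.04 CPM with a median of 1.63 in ELA_Vehicle. Its log2 fold change was 1.94 (SE 0.489, edgeR adjusted p = 0.301), and the groups overlapped. Zfp988 had a log2 fold change of 1.17 (SE 0.31) and Zfp933 one of 0.20 (SE 0.06), both with adjusted p values above 0.3. The sum over the 18 genes, which does not depend on how reads were shared among them, ran from 24.2 over 25.8 to 32.2 CPM (lowest, median, highest) in Ctrl_Vehicle and from 24.1 over 30.8 to 42.3 CPM in ELA_Vehicle, with overlapping ranges.

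**Figure D1:**
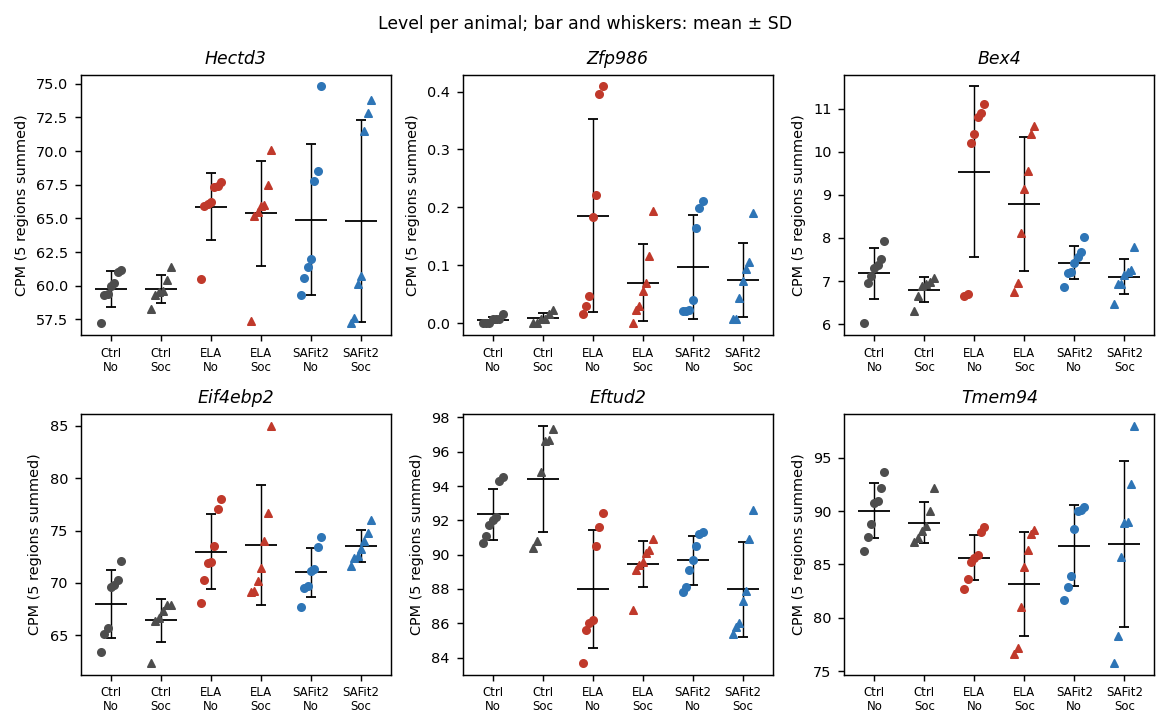
Level of 6 genes in each mouse, in CPM on a linear axis, with 5 regions summed. Points are mice (circles NoInteraction, triangles SocialInteraction), bars and whiskers the mean ± SD of each group. Hectd3 lay above 65 CPM in 12 of the 14 ELA_Vehicle mice, and Bex4 lay above every control in 10 of the 14.

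The next genes higher in ELA_Vehicle did not pass the adjusted threshold and are given as values. Bex4, a brain-expressed gene on the X chromosome, ran from 6.02 over 6.98 to 7.94 CPM (lowest, median, highest) in Ctrl_Vehicle and from 6.65 over 9.86 to 11.1 CPM in ELA_Vehicle, with 10 of 14 mice above every control (log2 fold change 0.39, SE 0.081, edgeR adjusted p = 0.211). The remaining 4 ELA_Vehicle mice lay among the controls.

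Eif4ebp2, a repressor of translation initiation, had medians of 67.3 CPM in Ctrl_Vehicle and 72.0 CPM in ELA_Vehicle (log2 fold change 0.12, SE 0.029, edgeR adjusted p = 0.301), with 6 of 14 mice above every control.

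The largest fitted folds in this ranking came from genes at very low level. Slc2a2, the glucose transporter GLUT2, had medians of 0.0548 and 0.0994 CPM in Ctrl_Vehicle and ELA_Vehicle. Gm13691 and Gm13695 are neighbouring predicted genes on chromosome 2. Their log2 fold changes were 6.0 (SE 1.316) and 4.76 (SE 1.17), both with edgeR adjusted p values above 0.2. Both belong to a group of near-identical copies of Cwc22, among which reads could be split. Their values and those of Cwc22 are therefore not separate results. For Gm13691, 2 ELA_Vehicle mice of the NoInteraction set lay above every control, the higher at 16.5 CPM, whereas the ELA_Vehicle median was 0.0506 CPM and the Ctrl_Vehicle median 0.0288 CPM. The same 2 mice were the only ELA_Vehicle mice above every control for Cwc22, a splicing factor gene of the same chromosome, where the highest level was 535 CPM and the group median 23.1 CPM. Without one of these mice the log2 fold change of Gm13695 was 1.64. Ppp1r3c, which targets protein phosphatase 1 to glycogen, Vwf, the von Willebrand factor gene of endothelial cells, and Tmem249 had log2 fold changes of 0.10 (SE 0.024), 0.37 (SE 0.091) and 1.67 (SE 0.423).

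Lower in ELA_Vehicle were, first, Eftud2, a GTPase of the spliceosome, and Ube2u, a member of the ubiquitin-conjugating enzyme family. Eftud2 ran from 90.4 over 92.2 to 97.3 CPM in Ctrl_Vehicle and from 83.7 over 89.5 to 92.4 CPM in ELA_Vehicle (log2 fold change -0.07, SE 0.015, edgeR adjusted p = 0.211). Of the 14 ELA_Vehicle mice, 10 lay below every control. Ube2u had 81 counts in the 13 Ctrl_Vehicle mice and 24 in the 14 ELA_Vehicle mice (log2 fold change -1.78, SE 0.407, edgeR adjusted p = 0.218), so its difference rests on few reads. Tmem68 ran from 29.8 over 34.5 to 36.6 CPM in Ctrl_Vehicle and from 23.2 over 30.0 to 31.6 CPM in ELA_Vehicle (log2 fold change -0.22, SE 0.052, edgeR adjusted p = 0.301), with 6 mice below every control.

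St6galnac2, a sialyltransferase gene that the table holds under 2 overlapping identifiers, had medians of 1.24 CPM in Ctrl_Vehicle and 0.738 CPM in ELA_Vehicle under ENSMUSG00000110170.2, and of 5.79 and 4.06 CPM under ENSMUSG00000057286.7. Their log2 fold changes were -0.72 (SE 0.161) and -0.56 (SE 0.142), and reads shared by both cannot be told apart. The remaining genes of this rank were Hpdl (log2 fold change -0.37), Majin, a gene of meiotic chromosomes (-1.20), Tmem94 (-0.08), Eif5a2, a translation factor gene (-0.09), Ehbp1l1 (-0.19), Shisa4 (-0.12) and Usp2, a ubiquitin-specific protease gene (-0.10). Their adjusted p values were all 0.301. In both directions together, 15 of the 24 named genes differed by less than 1.5-fold.

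The comparison was then made within each set, each with its own controls. Both sets were tested in a common fit that shares an estimate of the spread, so their p-values are not independent of each other. In edgeR, 0 genes passed the adjusted threshold in either set, while 799 genes (4.72%) had an unadjusted p below 0.05 in NoInteraction and 1069 (6.31%) in SocialInteraction. DESeq2 called 6 genes in each set. Hectd3 had a log2 fold change of 0.14 (SE 0.03) in NoInteraction and 0.13 (SE 0.03) in SocialInteraction, and the test of the difference gave an unadjusted p of 0.795 in edgeR. Zfp986 had 4.95 (SE 0.91) and 2.93 (SE 0.98), with an unadjusted p of 0.226 for the difference in edgeR. All 24 named genes had the same sign in both sets, and 19 had an unadjusted p below 0.05 in each. They were ranked on these same mice, so this describes them and tests nothing.

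Over all genes, which were not chosen, log2 fold changes of the 2 sets had a Pearson r of 0.161 and a Spearman correlation of 0.115 across 16942 genes, which are not independent of each other. The sign was the same in 51.0% of all genes. Among the 799 genes with an unadjusted p below 0.05 in NoInteraction, 57.8% had the same sign in SocialInteraction, and among the 1069 of SocialInteraction 53.4% had it in NoInteraction. In both sets and with the same sign, 56 genes had an unadjusted p below 0.05, while 16 genes did so with opposite signs. The 56 genes are 7.01% of the first list and 5.24% of the second. Of all genes, 6.31% had such a p in SocialInteraction and 4.72% in NoInteraction, with either sign. The shared estimate of the spread ties the p-values of the sets to each other, so these counts are a description only.

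**Figure D2:**
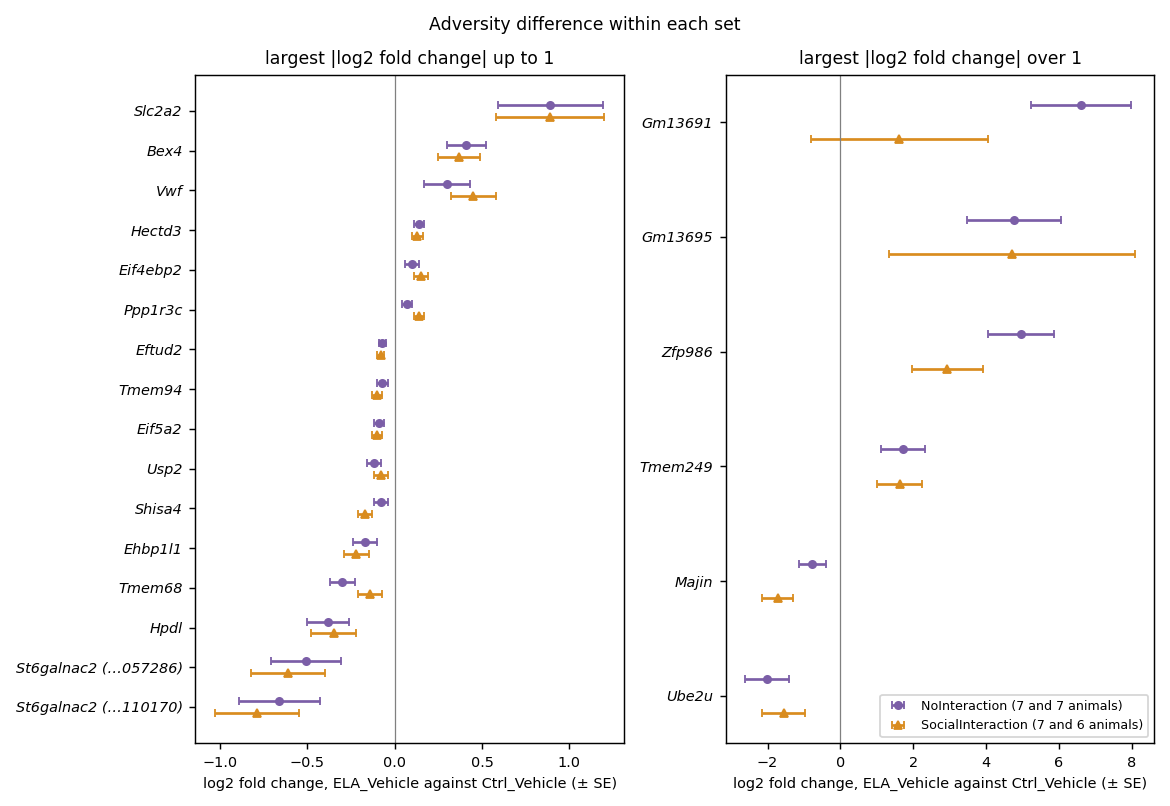
Log2 fold change (± SE) of 22 of the named genes, ELA_Vehicle against Ctrl_Vehicle, in NoInteraction (circles) and SocialInteraction (triangles), with the genes of large fold in the right panel. Each gene lies on the same side of 0 in both sets, and Gm13691 has the widest gap between sets, 6.60 against 1.62.

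The test of the difference between the sets called 0 genes in edgeR and 0 in DESeq2, with 913 genes (5.39%) at an unadjusted p below 0.05. The smallest p belonged to Olfr13, an olfactory receptor gene, with a log2 fold change of -1.01 (SE 0.28) in NoInteraction and 0.74 (SE 0.28) in SocialInteraction. Ptar1 (-0.06 and 0.09), Arhgap5, a GTPase-activating protein gene (-0.04 and 0.08), Asrgl1 (-0.02 and 0.14), 2510039O18Rik (0.07 and -0.03) and Akna (-0.18 and 0.27) followed. All 6 had an edgeR adjusted p of 0.918 for the difference, which leaves no gene past the threshold.

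Each region was also tested alone. In edgeR, 1 gene passed in BLA (0.00637% of 15688 genes) and it was Hectd3, with a log2 fold change of 0.15 (SE 0.02, adjusted p = 0.00834). In mPFC, ACC, DMT and vHipp 0 genes passed, with 542 (3.51%), 593 (3.87%), 716 (4.63%) and 934 genes (6.07%) at an unadjusted p below 0.05, beside 708 (4.51%) in BLA, and DESeq2 called 1, 0, 5 and 3 genes there. Hectd3 had log2 fold changes of 0.12 in mPFC, 0.11 in ACC, 0.14 in DMT and 0.12 in vHipp, each with an unadjusted p below 0.05. Zfp986 was too low to be tested in any single region.

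Of the 24 named genes, 18 were testable in all 5 regions. The sign was the same in all 5 for 17 of them, and 9 had an unadjusted p below 0.05 in every region. The genes were ranked on the sum of these same regions, so these counts describe them and test nothing. The exception in sign was Hpdl, whose log2 fold change was 0.13 in DMT and below 0 in the other 4 regions. The regions come from the same mice, so they repeat a mouse and do not add replicates. The correlation between regions of one mouse, after condition, region and set were accounted for, was 0.69 for Tmem68, 0.58 for Bex4 and 0.46 for Hectd3, against a median of 0.106 over all genes. It reached 0.5 in 6 of the 24 named genes and in 4.76% of all genes. At the other end it was -0.06 for Gm13695, -0.05 for Ube2u, 0.01 for Slc2a2, 0.04 for Hpdl and 0.08 for Usp2, Shisa4, Eif5a2 and Ppp1r3c.

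**Figure D3:**
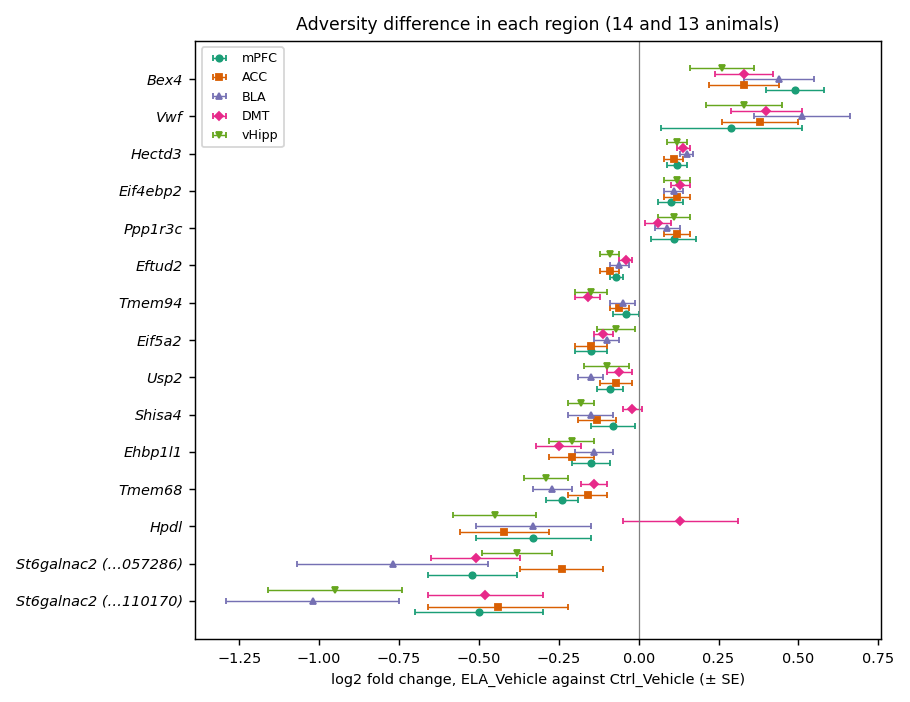
Log2 fold change (± SE) in each of the 5 regions for 15 named genes testable in all regions with an absolute summed log2 fold change below 2. Symbols are regions, with 14 ELA_Vehicle and 13 Ctrl_Vehicle mice in each. The regions of Bex4 lie between 0.26 and 0.49, and Hpdl in DMT is the only point on the other side of 0 from the rest of its gene.

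Of the 24 named genes, 12 had another named gene within 1 Mb. This count takes in both entries of St6galnac2 and the Cwc22 copies Gm13691 and Gm13695, which are not separate results. No such share was worked out for all genes, so the count is a description only. Examples are Hectd3 and Hpdl on chromosome 4, Tmem94 and both St6galnac2 entries on chromosome 11, Slc2a2 and Eif5a2 on chromosome 3, and Majin and Ehbp1l1 on chromosome 19. Some of these neighbours differed in opposite directions, such as Hectd3 (0.13) and Hpdl (-0.37).

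The genes around them were counted as well. Within 1 Mb of Hectd3, 9 of 47 tested genes (19.1%) had an unadjusted p below 0.05, namely Mutyh, Mmachc, Nasp, Ipp, Pomgnt1, Nsun4, Hpdl, Tmem53 and Ccdc24. Within 1 Mb of Eif4ebp2 it was 8 of 24 (33.3%). Around each entry of St6galnac2 it was 11 of 46 (23.9%), which counts the other entry of the same gene. The share over all genes with a position was 6.29%, and 22 of the 24 named genes had a higher share around them, the exceptions being Vwf (4.44%) and Shisa4 (6.06%). Around Gm13691 and Gm13695 it was 6 of 27 (22.2%) each, and all 6 belonged to the same group of Cwc22 copies. Neighbouring genes are not independent of each other and no test was made. By chromosome, the share was highest on chromosome 4 (8.49% of 1060 genes) and chromosome 19 (8.14% of 565) and lowest on chromosome 8 (3.75% of 879). Whether the mice of the groups differed in genotype at these places was not tested.

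**Figure D4:**
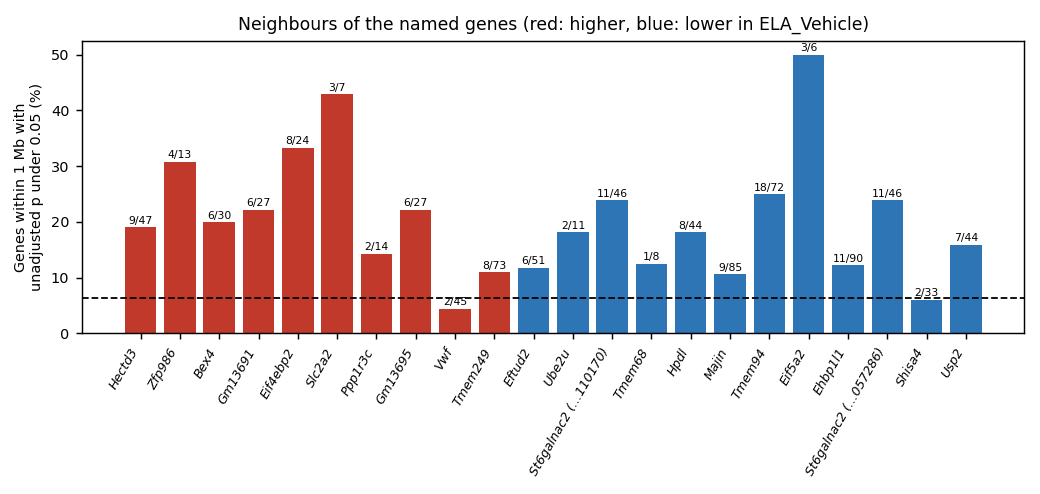
Share of tested genes within 1 Mb of 22 of the named genes that had an unadjusted p below 0.05, in percent, with the count above each bar and the share over all genes, 6.29%, as a dashed line. Red bars are genes higher and blue bars genes lower in ELA_Vehicle, and 20 of the 22 bars stand above the line.

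The levels of the ELA_SAFit2 mice stood at different places beside the other groups, and no test was made of them here. For Bex4 they ran from 6.46 over 7.21 to 8.03 CPM, with 1 of 14 mice above every Ctrl_Vehicle mouse. For Slc2a2 the median was 0.0393 CPM and 0 of 14 mice lay above every control. For Tmem68 they ran from 23.8 over 29.1 to 31.9 CPM, with 10 of 14 below every control, and for Eftud2 from 85.4 over 88.6 to 92.6 CPM, with 9 of 14 below. For Eif4ebp2, 8 of 14 lay above every control. Bex4 and Slc2a2 thus stood near the control levels in these mice, and Tmem68, Eftud2 and Eif4ebp2 near those of ELA_Vehicle. Of the 2 called genes, Hectd3 lay above every control in 8 of these 14 mice and below every control in 1. Zfp986 lay above every control in 10 of 14. Its median was 0.0584 CPM, beside 0.0626 CPM in ELA_Vehicle and 0.0071 CPM in Ctrl_Vehicle.

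Genes of the stress hormone axis did not pass the adjusted threshold. Among 18 receptor and chaperone genes, 0 had an unadjusted p below 0.05 and the median log2 fold change was 0.02. Nr3c1, the glucocorticoid receptor, had medians of 121 CPM in Ctrl_Vehicle and 119 CPM in ELA_Vehicle (log2 fold change 0.02, SE 0.035), and Nr3c2, the mineralocorticoid receptor, 74.3 and 76.2 CPM (0.09, SE 0.045, unadjusted p = 0.0561 in edgeR). Fkbp5 ran from 29.5 over 35.3 to 80.1 CPM in Ctrl_Vehicle and from 31.6 over 36.6 to 45.8 CPM in ELA_Vehicle (log2 fold change -0.05, SE 0.094, edgeR adjusted p = 0.966). A single control of the SocialInteraction set, number 57, held the highest value, and without it the log2 fold change was 0.08.

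Of 29 glucocorticoid-induced genes, 1 was higher at an unadjusted p below 0.05, Nedd9 (log2 fold change 0.08), and 0 were lower, with a median of -0.02. Of 10 genes of the corticotropin-releasing hormone system, Ucn3 was higher (1.49, SE 0.589) and Ucn lower (-0.61, SE 0.303) at that level, both urocortin genes below 0.1 CPM at the group medians. Crh itself had a log2 fold change of 0.12 (SE 0.135) and its receptor Crhr1 one of -0.09 (SE 0.072). The median over all 16942 genes was 0.00 on this scale, and 6.29% of them reached an unadjusted p of 0.05.

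Among 6 oxytocin and vasopressin genes, 2 were higher and 0 lower at an unadjusted p below 0.05, beside 3.07% and 3.22% of all genes. Avpr1a, the vasopressin V1a receptor, had medians of 0.369 CPM in Ctrl_Vehicle and 0.485 CPM in ELA_Vehicle (log2 fold change 0.36, SE 0.105, edgeR adjusted p = 0.525), with 5 of 14 mice above every control. Cd38, needed for oxytocin release, had 3.38 and 3.78 CPM (0.14, SE 0.059). Oxtr, the oxytocin receptor, had 12.2 and 12.1 CPM (0.02, SE 0.069). The list's median of 0.24 rests on 6 genes and was 0.11 when the regions were weighted by library in the fit with the mouse as replicate block.

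Of 21 genes for GABA synthesis, transport and receptors, 5 were higher and 0 lower at an unadjusted p below 0.05, beside 3.07% and 3.22% of all genes, while the median of the list was 0.00. Among them were Slc6a11, which takes up GABA, Abat, which degrades it, Slc32a1, which loads it into vesicles, and Gabrg1, a receptor subunit. Slc32a1 had the largest log2 fold change of the 5, 0.17 (SE 0.077), and the smallest edgeR adjusted p of the list was 0.662. Of 11 markers of striatal tissue, where GABA neurons prevail, 0 had an unadjusted p below 0.05 and the median log2 fold change was 0.21, and their part in this result was not tested.

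Of 28 glutamate receptor and transporter genes, 1 was higher (Grin2c, 0.06) and 1 lower (Gria3, -0.04) at that level, with a median of 0.00. The shares over all genes, 3.07% higher and 3.22% lower, stand beside this and the next lists. Of 21 serotonin and noradrenaline receptor genes, 1 was higher (Htr7, 0.14) and 2 were lower, among them Adrb1 (-0.08). Among 25 synaptic adhesion and scaffold genes, 14 opioid and endocannabinoid genes and 22 clock genes, 0 reached an unadjusted p of 0.05. Of 21 neurotrophin genes and receptors, Ngfr was higher (0.43, SE 0.164), and Bdnf had a log2 fold change of -0.01 (SE 0.06). Of 32 immediate early genes, 0 reached that level, and Fos had a log2 fold change of 0.20 (SE 0.274).

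Among immune genes, 3 of 20 MHC class I genes were lower and 0 higher at an unadjusted p below 0.05, beside 3.22% and 3.07% of all genes. The list's median log2 fold change was -0.02, with 9 members above and 11 below 0, and the highest values were those of H2-T22 (0.88, SE 0.523) and H2-T23 (0.61, SE 0.396). H2-D1, a classical class I gene, ran from 23.9 over 36.9 to 49.5 CPM in Ctrl_Vehicle and from 22.3 over 25.6 to 40.3 CPM in ELA_Vehicle (log2 fold change -0.39, SE 0.118, edgeR adjusted p = 0.537), with 6 of 14 mice below every control. H2-Q4 had -0.31 (SE 0.105) and H2-Q10 -0.47 (SE 0.164). These genes have near-identical copies and differ between strains, so their counts are uncertain. Of 35 interferon-stimulated genes, Ifit2 was higher (0.45, SE 0.198) and Ifit3 lower (-1.0, SE 0.351). Of 19 genes of Toll-like receptors and their signalling Tlr5 was higher (0.26) and Tlr2 lower (-0.24), and of 17 complement genes Itgam was higher (0.08) and C3 lower (-0.50). Of 12 drug efflux transporter genes, 2 were lower, Abcb1b (-0.82, SE 0.295) and Abcc3 (-0.16, SE 0.069).

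The 10 genes that the study names for differences shared by several regions were chosen on mice of this series taken under basal conditions, which describes the NoInteraction set, so their values there are no independent evidence. In NoInteraction their median absolute log2 fold change was 1.04, and 6 of 10 had an unadjusted p below 0.05, beside 4.72% of all genes. The mice of SocialInteraction are left out by that description, although the study's text names neither set. In SocialInteraction the median absolute log2 fold change was 0.50 and 0 of 10 reached an unadjusted p of 0.05 (smallest 0.083 in edgeR, for Zfp984). Of all genes 6.31% reached it in that set, so 0 of 10 is near that share. The sign was the same in both sets for 9 of 10, with Best1, an anion channel gene, at -1.15 and 0.24. Cwc22 stood at 2.85 and 0.02. Summed over both sets, Zfp984, Cwc22, Sp6 and Ifit2 were higher and Ifit3 and Abcb1b lower at an unadjusted p below 0.05. Of all genes, 3.07% were higher and 3.22% lower at that level. All 10 had a correlation of at least 0.5 between the regions of one mouse, beside 4.76% of all genes.

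Among 19 DNA methylation genes Dnmt3l was higher (0.42, SE 0.192), and among 25 genes of histone acetylation and Polycomb Hdac5 was higher (0.05, SE 0.018), with 0 lower in either list. Of 102 genes whose symbols start as those of ribosomal proteins do, which takes in ribosomal kinases, 2 were higher (Rpl22l1 and the kinase Rps6ka6) and 2 lower (Rpl35a and Rplp0). Of the genes with the symbol stems of nuclear respiratory chain subunits, Cox6b2 was lower, and of 13 mitochondrially encoded genes mt-Cytb was lower (-0.04). The medians of these lists lay between -0.03 and 0.01. Their counts are at an unadjusted p below 0.05, where 3.07% of all genes were higher and 3.22% lower.

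Among markers of tissue that could be included with the punches, 0 genes passed the adjusted threshold. All 16 choroid plexus markers had log2 fold changes below 0, with a median of -0.45 and 0 with an unadjusted p below 0.05. Their summed level ran from 414 over 1344 to 2088 CPM in Ctrl_Vehicle and from 175 over 1053 to 1814 CPM in ELA_Vehicle, and in BLA Ttr, the leading choroid plexus transcript, ran from 0.0 to 4453 CPM among the libraries. All 12 ependymal markers had log2 fold changes below 0 (median -0.31). Of them 1 had an unadjusted p below 0.05, beside 3.22% of all genes that were lower at that level. It was Dnah5, a ciliary dynein gene, at -0.16 (SE 0.059). All 11 striatal markers had log2 fold changes above 0 (median 0.21), and 0 had an unadjusted p below 0.05. Their sums ran from 326 over 678 to 1006 CPM in Ctrl_Vehicle and from 417 over 687 to 1263 CPM in ELA_Vehicle. In such bulk samples, fewer cells of a type and less RNA per cell cannot be told apart. Hectd3 and Zfp986 passed also with BLA, or any other single region, left out of the sum.

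All 17 oligodendrocyte and myelin markers had log2 fold changes above 0 (median 0.07), among them Olig2 (0.10, SE 0.049) and Mal (0.15, SE 0.09), and 0 reached an unadjusted p of 0.05. The sum ran from 3102 over 3687 to 4452 CPM in Ctrl_Vehicle and from 3083 over 4218 to 4697 CPM in ELA_Vehicle, with overlapping ranges. Of 15 microglia and macrophage markers, Aif1 was lower (-0.54, SE 0.178, medians 7.05 and 3.39 CPM, edgeR adjusted p = 0.651), while P2ry12, a microglial receptor, had -0.07 (SE 0.04). Of 16 endothelial and mural markers Abcc9 was higher (0.10), and of 10 neuron markers Rbfox3 was lower (-0.04). Among 12 astrocyte, 14 fibroblast, 8 red blood cell, 13 thalamic and habenular, 12 proliferation and 14 olfactory bulb markers, and 14 genes of dopamine receptors and striatal signalling, 0 reached that level. The medians of these lists over both sets ran from -0.03 to 0.17. Within the sets the olfactory bulb markers lay furthest apart, with medians of -0.27 in NoInteraction and 0.26 in SocialInteraction. Thalamic and habenular markers had medians of -0.03 and 0.13. Differences of lists between the sets were not tested. Hippocampal markers had 1 higher (Fibcd1) and 2 lower (Dsp and Lct) of 11, amygdala and cortical layer markers 1 lower (Tbr1) of 13, and interneuron and perineuronal net genes 2 higher (Bcan and Nkx2-1) of 19. Of all genes, 3.07% were higher and 3.22% lower at that level, and no list was tested against these shares.

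**Figure D5:**
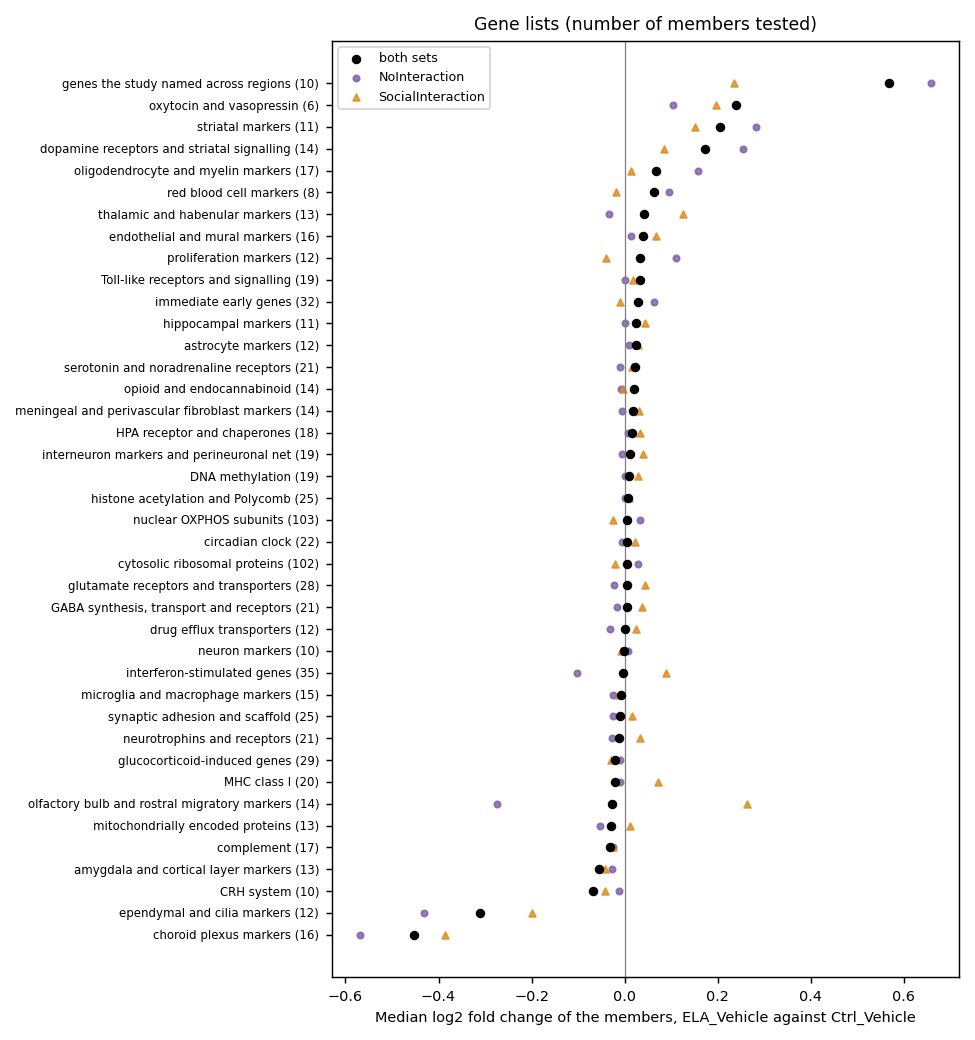
Median log2 fold change of the tested members of each gene list, ELA_Vehicle against Ctrl_Vehicle, over both sets (black), NoInteraction (purple circles) and SocialInteraction (orange triangles), with the number of members in brackets. Choroid plexus (-0.45) and ependymal (-0.31) markers lie lowest, and the list with the highest median is the one of genes the study chose on mice of this series (0.57).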

How the data were processed

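Polyadenylated RNA was sequenced (stranded kit, paired ends) from bilateral tissue punches. The deposited values are estimated counts from salmon, merged to genes and neither scaled to depth nor to gene length. The submitters' processing notes also name STAR, DESeq2 and the build GRCm39. The salmon version and annotation release are not given in the sources used here. Values were rounded (12.12% were not whole), and 56691 genes were typed through GENCODE M21 (52073) or RefSeq symbols (978), with 3640 left out.

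Counts were summed over 5 regions per mouse number, which names a mouse sampled in each region, so the regions are paired by design. The filter follows the study's and kept genes typed as protein coding whose counts over mice came to 100 or more and were above 0 in 6 or more mice. They were tested with edgeR 4.0.16 (TMM, quasi-likelihood test) in R 4.3.3 with condition and set as terms, and with 4 groups for the sets and their difference. Standard errors are the unshrunken coefficient over the root of F. DESeq2 1.42.0, limma 3.58.1, other scalings, filters and gene types, and leaving out each mouse and region were alternatives. The scripts were tested on simulated data. Python 3.11.15, pandas 2.3.3 and Matplotlib 3.10.9 did the rest.

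The 24 genes named first are the called genes, filled up to 12 per direction by unadjusted p, and counts are over all 24, although some genes are not reported here. Others are up to 4 members per list by p, genes the study names, and the 6 smallest p for the set difference. The comparison, lists and tests were chosen with earlier results of these data known. Positions are those of GRCm38 (GENCODE M21), matched by gene identifier without version, and promoters are from RefSeq on GRCm38.p6. TMM factors lay between 0.984 and 1.021. Depth limits the least abundant genes, such as Zfp986 with at most 53 counts per mouse.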

Additional observations from a re-analysis of the deposited data

Results flagged for a closer look

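In the 24 named genes, each of the 4 groups of 6 or 7 mice was searched for a highest or lowest value far from the rest (Dixon's ratio of gap to range). Of 96 groups, 6 held such a value (6.25%), where chance gives about 1 in 20 for normally distributed values. That rate does not apply to genes with most mice at or near 0, such as Gm13695. For Hectd3 it was the lowest ELA_Vehicle mouse of NoInteraction at 60.5 CPM, with the next at 65.9 CPM, and that of SocialInteraction at 57.4 CPM, with the next at 65.2 CPM. For Gm13695 it was the highest ELA_Vehicle mouse of NoInteraction at 8.66 CPM, with the next at 0.206 CPM, and the single Ctrl_Vehicle mouse of SocialInteraction above 0, at 0.00783 CPM. For Eif4ebp2 it was the lowest Ctrl_Vehicle mouse of SocialInteraction at 62.4 CPM, and for Ehbp1l1 the lowest Ctrl_Vehicle mouse of NoInteraction at 25.2 CPM. The same ELA_Vehicle mouse of NoInteraction was the lowest for Hectd3 and the highest for Gm13695.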

How the results depend on the processing

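The comparison over both sets gave 2 called genes and 39 of its 44 alternatives gave 2 or 3. DESeq2 called 8 (among them Hectd3, Zfp986, Bex4, Eftud2, Tmem68 and St6galnac2), all gene types gave 4 (adding Gm9750 and C530005A16Rik), edgeR's expression filter 1 (Hectd3) and limma on log2 CPM averaged over regions 1 (Hectd3). With single libraries and the mouse as replicate block, limma-voom called 236. That fit gives every gene the same correlation of 0.116 between libraries of one mouse, whereas the gene's own value was 0.69 for Tmem68 and 0.46 for Hectd3, so its p-values are too small for such genes. Leaving out 1 mouse gave 2 to 3 genes over both sets, 0 to 1 in NoInteraction and 0 to 1 in SocialInteraction, against 0 in each set with all mice. There were 3 genes in 4 of these fits, and in the fits without either mouse with high Cwc22, both ELA_Vehicle, the added gene was Bex4. The gene within a set was Zfp986 in NoInteraction without mouse 21 or either mouse with high Cwc22, and Hectd3 in either set without mouse 61. DESeq2 called 6 genes in NoInteraction and 6 in SocialInteraction, and all gene types gave 1 in SocialInteraction (C530005A16Rik). The difference between sets gave 0 under all 40 alternatives. By region DESeq2 called 1 in mPFC (Bex4), 6 in BLA, 5 in DMT (Tmem94, Map4k2, Car8, Hectd3 and Zfp984) and 3 in vHipp (among them Nodal and St6galnac2), against 0, 1, 0 and 0 in edgeR. These genes were named after their values were seen. With all 41 mice in the fit the 2 called genes were Zfp986 and Bex4. Signs turned in 4 genes near 0. The log2 fold change of Bdnf was 0.004 with scaled region libraries, 0.011 without BLA and -0.038 to 0.008 without single mice. That of Oxtr was -0.005 without BLA, -0.011 without vHipp and -0.017 to 0.048 without single mice. Without single mice, that of Fkbp5 ran from -0.067 to 0.078 and that of Nr3c1 from -0.004 to 0.034, with both turning without mouse 57. The causes were not tested. Of 1760 list medians under alternatives, 6 moved by more than the spread between mice, all in the small lists of oxytocin and vasopressin or of the CRH system.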
